A study of Mus musculus with 9 samples.

Results

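Glycolysis is represented here by 9 enzymes, Hk1, Hk2, Hk3, Gpi1, Pfkl, Pfkp, Tpi1, Pkm and Ldha, and by the glucose transporter gene Slc2a1. All probe sets that carry the symbol of a single one of these 10 genes in the array's annotation were taken. They numbered 19 of the 45037 probe sets on the array that are not controls, and they read 9 of the 10 genes. Tpi1, Pfkl, Pfkp and Slc2a1 had 3 probe sets each, Hk1 and Hk3 had 2 each, and Hk2, Pkm and Ldha had 1 each. Gpi1 (glucose-6-phosphate isomerase) had 0 under this rule and was not analysed here.

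RNA came from progenitor cells sorted from the bone marrow of mice 6 weeks of age, in 3 groups of 3 arrays. LSK WT cells (lineage-negative, cKit+, Sca1+), a fraction enriched for blood stem cells and early multipotent progenitors, and GMP WT cells (lineage-negative, cKit+, Sca1-, CD34+, FcgammaRII/III+), the granulocyte-monocyte progenitors, came from Ncstn flox/flox mice. GMP NcstnKO cells were sorted by the GMP gate from Ncstn flox/flox Mx1-cre+ littermates, in which interferon switches on the Cre recombinase that deletes Ncstn, the gene of nicastrin. Nicastrin is a subunit of gamma-secretase, the membrane protease that releases the signalling part of Notch receptors. Mice of both genotypes had received polyIC, an inducer of interferon, 3 times from 14 days of age at 20 µg per g, and cells were taken 4 weeks later. Mx1-cre acts in all cells that respond to interferon, not in GMP alone, and only the knockouts carried it, so its own effect and that of losing Ncstn cannot be told apart. The labels do not say whether an array holds RNA of 1 animal, and p-values measure the spread between arrays.

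Glycolysis turns glucose into pyruvate in the cytosol and yields ATP without oxygen. Glucose enters through facilitative transporters such as GLUT1 (Slc2a1) and is trapped by hexokinases. Phosphofructokinase commits the sugar to breakdown, triose phosphate isomerase (Tpi1) joins its 3-carbon products into a single path, pyruvate kinase (Pkm) makes pyruvate and lactate dehydrogenase A (Ldha) reduces it to lactate. Hexokinase and phosphofructokinase exist as isozymes from separate genes: Hk1 is the widely expressed hexokinase, Hk2 the inducible form, and Hk3 a form of blood cells that lacks the mitochondrial anchor. Pfkl, Pfkm and Pfkp are named for liver, muscle and platelets. Hematopoietic stem cells in the marrow are known for their reliance on glycolysis.

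The promoter windows of Hk1, Hk2, Hk3, Pfkp and Slc2a1, which had probe sets that differed between LSK and GMP, are printed here, each 250 bases before to 50 bases after a transcription start, 5′ to 3′ on the gene's strand, from RefSeq on GRCm38.p6. Hk1 had windows at 2 starts and both are shown, and its probe sets were not tied to either start. Capitals mark matches, on either strand, to ACGTG, the core letters read by hypoxia-inducible factors, and to GAGGAA, the core read by the myeloid factor PU.1. CACGTG, the E-box read by Myc and its relatives, was searched as well and contains ACGTG on both strands.
Hk1 start A, chr10:62340372-62340671, minus strand: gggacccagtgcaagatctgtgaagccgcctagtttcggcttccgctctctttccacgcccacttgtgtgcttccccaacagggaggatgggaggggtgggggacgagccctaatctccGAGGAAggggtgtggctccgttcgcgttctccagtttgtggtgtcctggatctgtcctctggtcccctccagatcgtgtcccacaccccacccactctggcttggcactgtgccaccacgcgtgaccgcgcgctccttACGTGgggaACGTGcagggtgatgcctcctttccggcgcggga
Hk1 start B, chr10:62379859-62380158, minus strand: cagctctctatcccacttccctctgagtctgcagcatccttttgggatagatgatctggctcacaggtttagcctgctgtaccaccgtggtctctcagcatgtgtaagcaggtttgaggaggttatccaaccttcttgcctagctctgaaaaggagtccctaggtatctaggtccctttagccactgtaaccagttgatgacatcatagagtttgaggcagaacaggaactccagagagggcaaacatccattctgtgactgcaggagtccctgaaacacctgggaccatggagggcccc
Hk2, chr6:82774405-82774704, minus strand: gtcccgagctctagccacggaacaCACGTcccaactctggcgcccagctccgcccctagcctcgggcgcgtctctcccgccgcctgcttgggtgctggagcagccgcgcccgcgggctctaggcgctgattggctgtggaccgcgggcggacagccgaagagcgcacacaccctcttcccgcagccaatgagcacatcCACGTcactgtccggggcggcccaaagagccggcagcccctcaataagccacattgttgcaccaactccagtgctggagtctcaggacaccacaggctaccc
Hk3, chr13:55021336-55021635, minus strand: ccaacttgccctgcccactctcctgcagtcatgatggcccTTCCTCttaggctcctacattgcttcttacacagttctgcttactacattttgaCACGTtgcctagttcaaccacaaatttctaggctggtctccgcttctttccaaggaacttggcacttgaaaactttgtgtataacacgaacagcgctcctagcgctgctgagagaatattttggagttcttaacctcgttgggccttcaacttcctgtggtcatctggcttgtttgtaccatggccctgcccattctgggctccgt
Pfkp, chr13:6648722-6649021, minus strand: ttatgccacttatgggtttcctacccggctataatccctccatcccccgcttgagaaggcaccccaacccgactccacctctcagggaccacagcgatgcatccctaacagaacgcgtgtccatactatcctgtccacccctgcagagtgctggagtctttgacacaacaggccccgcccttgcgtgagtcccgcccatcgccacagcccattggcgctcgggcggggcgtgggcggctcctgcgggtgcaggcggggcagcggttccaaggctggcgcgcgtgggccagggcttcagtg
Slc2a1, chr4:119108495-119108794, plus strand: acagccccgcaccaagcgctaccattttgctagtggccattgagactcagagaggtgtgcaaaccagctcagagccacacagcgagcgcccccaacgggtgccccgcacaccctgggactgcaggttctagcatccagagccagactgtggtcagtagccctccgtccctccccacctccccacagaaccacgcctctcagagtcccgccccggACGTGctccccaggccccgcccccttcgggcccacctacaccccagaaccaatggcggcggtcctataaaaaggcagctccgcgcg
All 10 genes had a window, and 13 windows were read in all. ACGTG lay in 6 of the 13 windows, of Hk1, Hk2, Hk3, Pkm, Ldha and Slc2a1, against 19.6% of the 32851 windows of this length in the table. GAGGAA lay in 2 of the 13 windows, of Hk1 and Hk3, against 28.3% of all windows, and CACGTG in 1 window, of Ldha, with 2 matches, against 7.15%. Pfkp held no match to any of them in its window. These matches describe the letters of the windows and were not tied to binding or to the values below.

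The checks of the arrays were as follows. Ncstn read 9.13, 9.02 and 8.99 in LSK WT, 9.25, 9.31 and 9.26 in GMP WT and 7.79, 7.78 and 7.76 in GMP NcstnKO (log2 intensity), so all knockout arrays lay below all others. Xist and the Y-linked Eif2s3y went against the labelled sex on 4 arrays, GMP WT 2 and 3 and GMP NcstnKO 2 and 3. By these transcripts LSK WT and GMP WT each held 1 female and 2 male arrays and the knockout group 3 female arrays. The median intensity was 98.3 to 103 on the LSK arrays and 65.4 to 68.6 on the GMP arrays, so the groups do not share a distribution. The median difference over all probe sets between GMP WT and LSK WT was -0.20 on the log2 scale in the values as given, 0.06 once arrays were quantile-normalized and 0.15 once they were centred on the 75th percentile. Calls between LSK and GMP are therefore read beside those after quantile normalization and after centring. The log2 ratio of the 3′ to the 5′ Actb control was 0.66 to 0.87 in LSK WT, 0.50 to 0.70 in GMP WT and 0.81 to 1.06 in GMP NcstnKO. Of 7 measured progenitor markers all passed the test between GMP WT and LSK WT, 4 higher and 3 lower, as they did after quantile normalization. After centring 4 were higher and 1 lower. Those of the gates were Fcgr3 (1.11) and Fcgr2b (0.59), higher, and Kit (-0.49) and Cd34 (-0.40), lower. The others, Flt3 (-2.43), lower, and Mpo and Elane, both higher, are not part of the gates given above. Ly6a, the gene of Sca1, on which the gates differ, was not matched and so was not read. All 19 glycolysis probe sets lay above the background limit, the 95th percentile of 27 unspiked bacterial controls, on all 9 arrays.

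The comparison of GMP WT with LSK WT asks how these genes differ between stem-cell-enriched and committed myeloid progenitors. Hk3, Hk2 and Pfkp were higher in GMP WT, and Hk1 and Slc2a1 were lower. The Hk3 difference was the largest, at 2.77-fold. Hk3 and Pfkp kept their call under quantile normalization and under centring on the 75th percentile, and so did Hk2. Of the 3 scalings, the fall of Slc2a1 passed only in the values as deposited, and that of Hk1 depended on the scaling. Of the 19 probe sets, 9 passed a limma adjusted p of 0.05, 5 higher and 4 lower, and 13 had an unadjusted p under 0.05, as did 45.6% of all probe sets. Over all 45037 probe sets 34.9% passed, 6.04% higher and 28.8% lower. After quantile normalization 6 passed, all higher, beside 30.5% of all probe sets, 17.6% higher and 12.9% lower. Centring on the 75th percentile gave 11 higher and 1 lower, beside 40% of all, 27.1% higher and 12.9% lower. Groups did not overlap for 9 probe sets that were higher and 5 that were lower, beside 51.8% of all, 11.5% higher and 40.3% lower. The share called, 9 of 19, thus stood beside 34.9%, and the median of the 19 differences was 0.09 beside -0.20 over all. In bulk RNA, fewer cells of a type and less RNA per cell cannot be told apart.

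**Figure D1:**
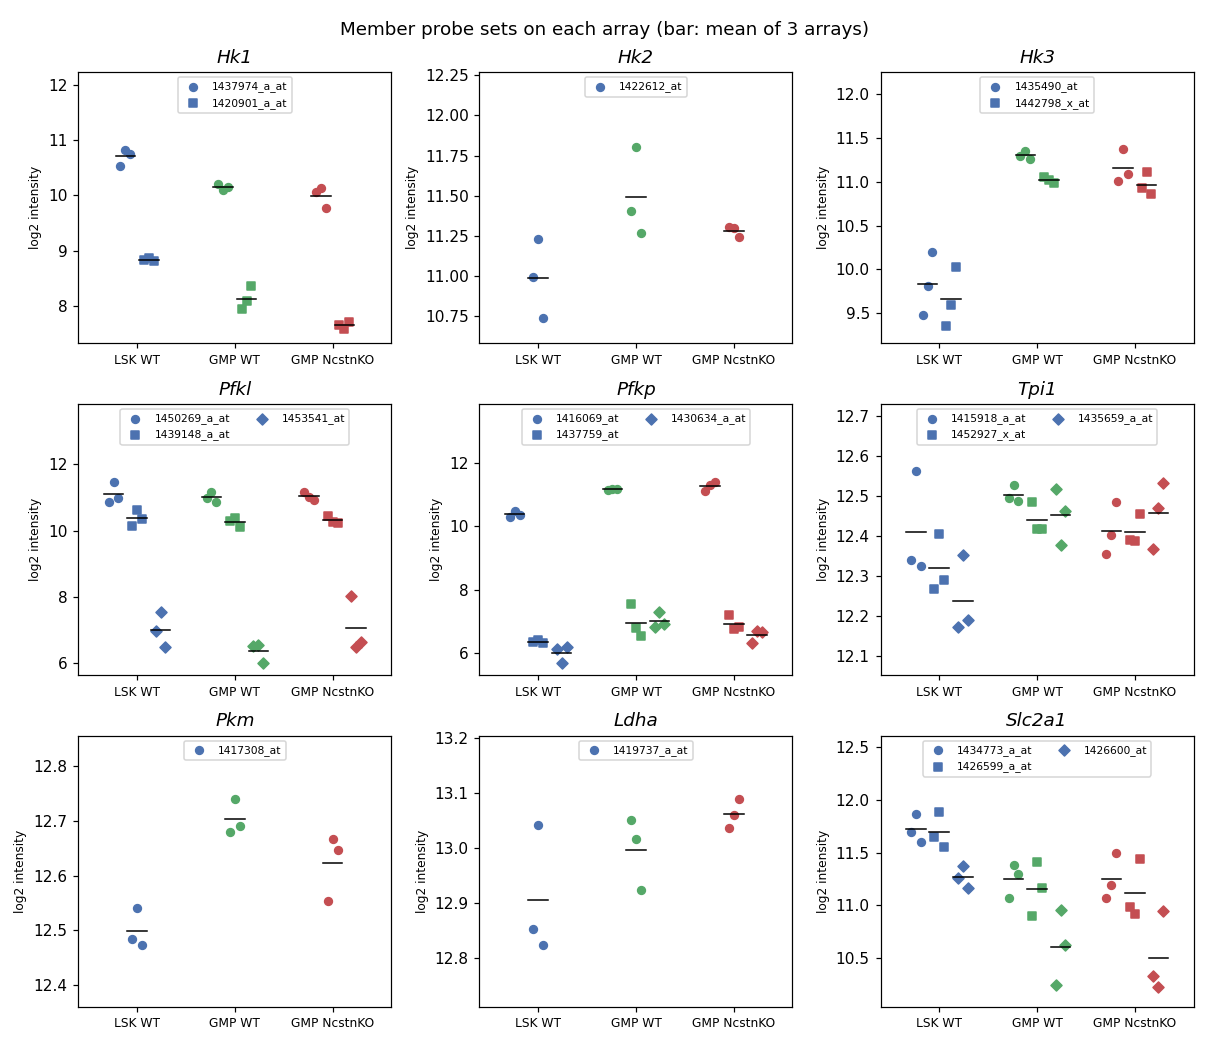
Log2 intensity (y axis) of each glycolysis probe set on each of the 9 arrays, by group (x axis), with a panel for each gene. Points are arrays, marker shapes are probe sets and bars are means of 3 arrays. All GMP arrays lie above all LSK arrays for Hk3 and for Pfkp, and below them for Hk1 and Slc2a1. The y axes differ between panels and do not start at 0.

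Slc2a1, the gene of the transporter GLUT1, was lower in GMP on its 3 probe sets. The brightest of them, 1434773_a_at, read 11.69, 11.87 and 11.60 in LSK WT, 11.07, 11.38 and 11.30 in GMP WT and 11.07, 11.19 and 11.49 in GMP NcstnKO. Each LSK array lay above each GMP array, and the GMP groups overlapped. Its difference between GMP WT and LSK WT was -0.47 (SE 0.14, limma adjusted p = 0.0311), or -0.38 after quantile normalization (adjusted p = 0.0638). Probe set 1426599_a_at differed by -0.54 (SE 0.18, adjusted p = 0.0476), and 1426600_at by -0.66 (SE 0.22), which narrowly missed the threshold (adjusted p = 0.05003). With the replicate number as a block, 1426599_a_at no longer passed (adjusted p = 0.0593). After quantile normalization both stood at -0.45 and -0.53 (adjusted p = 0.0884 and 0.0934). With arrays centred on the 75th percentile, the 3 probe sets stood at -0.12, -0.19 and -0.31 (adjusted p = 0.506, 0.412 and 0.288). Leaving out 1 array at a time ended the call of 1434773_a_at in 4 of 9 fits and that of 1426599_a_at in 7 of 9. GMP WT array 1 was the lowest of its group on all 3 probe sets, and without it 1434773_a_at differed by -0.38 (adjusted p = 0.102).

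Hk3, the hexokinase of blood cells, rose on both of its probe sets. On 1435490_at it read 9.48, 9.81 and 10.20 in LSK WT, 11.30, 11.35 and 11.26 in GMP WT and 11.01, 11.38 and 11.09 in GMP NcstnKO. The lowest GMP WT array lay 1.05 above the highest LSK array, while the LSK arrays spread more among themselves (SD 0.36) than the GMP WT arrays (SD 0.047). The mean rose from 9.83 to 11.30, a difference of 1.47 (SE 0.18, limma adjusted p = 0.000564), and of 1.71 after quantile normalization. Probe set 1442798_x_at, whose suffix marks probes that may also bind other transcripts, gave 1.36 (SE 0.16, adjusted p = 0.000505), and 1.63 after quantile normalization. Both passed in each of the 9 fits that left out an array, between 1.29 and 1.65 on 1435490_at.

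Hk1, the widely expressed hexokinase, was lower in GMP WT on both of its probe sets. Probe set 1437974_a_at read 10.54, 10.82 and 10.75 in LSK WT, 10.20, 10.09 and 10.15 in GMP WT and 10.07, 10.13 and 9.77 in GMP NcstnKO. LSK stood above GMP with no overlap, by 0.33 between the nearest arrays. On 1420901_a_at the values were 8.83, 8.87 and 8.81 in LSK WT, 7.95, 8.08 and 8.36 in GMP WT and 7.64, 7.59 and 7.70 in GMP NcstnKO, so that the 3 groups did not overlap. The differences between GMP WT and LSK WT were -0.56 (SE 0.12, limma adjusted p = 0.00897) and -0.71 (SE 0.11, adjusted p = 0.00209). After quantile normalization they were -0.35 and -0.24 (adjusted p = 0.0575 and 0.130), and after centring on the 75th percentile -0.21 and -0.36 (adjusted p = 0.204 and 0.0325). The direction held under each scaling and the call did not.

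Hk2, the inducible hexokinase, read 10.99, 11.23 and 10.74 in LSK WT, 11.40, 11.81 and 11.27 in GMP WT and 11.31, 11.30 and 11.24 in GMP NcstnKO. The lowest GMP WT array was 0.04 above the highest LSK array. The difference between GMP WT and LSK WT was 0.51 (SE 0.16, limma adjusted p = 0.0429), and 0.63 after quantile normalization (adjusted p = 0.0235). Of the 9 fits that left out an array, 7 did not pass, and the lowest value, 0.35 (adjusted p = 0.126), came without GMP WT array 2, the highest of its group.

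Pfkp, the platelet-type phosphofructokinase, rose in GMP WT. Its bright probe set 1416069_at read 10.28, 10.48 and 10.35 in LSK WT, 11.15, 11.17 and 11.18 in GMP WT and 11.10, 11.31 and 11.38 in GMP NcstnKO. Every GMP WT array was at least 0.67 above every LSK array. The difference between GMP WT and LSK WT was 0.80 (1.74-fold, SE 0.10, limma adjusted p = 0.000716), and 0.99 after quantile normalization. A much dimmer probe set, 1430634_a_at, read 6.12, 5.69 and 6.17 in LSK WT, 6.82, 7.29 and 6.91 in GMP WT and 6.31, 6.70 and 6.66 in GMP NcstnKO. It differed by 1.01 (SE 0.18, adjusted p = 0.00365), and kept its call after quantile normalization (adjusted p = 0.000942). The dim 1437759_at differed by 0.60 (SE 0.24, adjusted p = 0.0830), by 1.14 after quantile normalization (adjusted p = 0.00774), and passed with the replicate block (adjusted p = 0.0491). GMP WT array 1, at 7.54, was the highest of its group there, beside 6.77 and 6.54, and without it the difference was 0.31.

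No probe set of Pfkl, the liver-type phosphofructokinase, passed. Probe set 1450269_a_at read 10.86, 11.46 and 10.98 in LSK WT, 10.99, 11.17 and 10.87 in GMP WT and 11.15, 11.01 and 10.93 in GMP NcstnKO, and the 3 groups overlapped. Its difference between GMP WT and LSK WT was -0.09 (95% interval -0.46 to 0.28) as deposited, and 0.04 after quantile normalization and 0.26 after centring, so its sign was not settled. Probe set 1439148_a_at stood likewise at -0.11, and at 0.11 and 0.24 under those scalings. The dim 1453541_at stood at -0.64 (95% interval -1.59 to 0.31).

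Tpi1, Pkm and Ldha, which act after the hexose is split, were bright on all arrays and differed little. Pkm read 12.48, 12.54 and 12.47 in LSK WT, 12.68, 12.74 and 12.69 in GMP WT and 12.55, 12.67 and 12.65 in GMP NcstnKO. Its GMP WT arrays lay above both other groups, with a difference to LSK WT of 0.20 (95% interval 0.03 to 0.38, limma adjusted p = 0.0746). The probe set does not separate the M1 and M2 splice forms of the kinase as far as the annotation tells. Ldha read 12.85, 13.04 and 12.82 in LSK WT, 13.05, 13.02 and 12.92 in GMP WT and 13.04, 13.06 and 13.09 in GMP NcstnKO. Its difference was 0.09 (95% interval -0.12 to 0.30), with overlapping groups. The Tpi1 probe sets stood at 0.09, 0.12 and 0.21, and 1435659_a_at, the last of these, had the lowest adjusted p of the 3 (0.108). All 5 probe sets of these genes passed under centring on the 75th percentile, between 0.44 and 0.56, and none of them under quantile normalization.

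**Figure D2:**
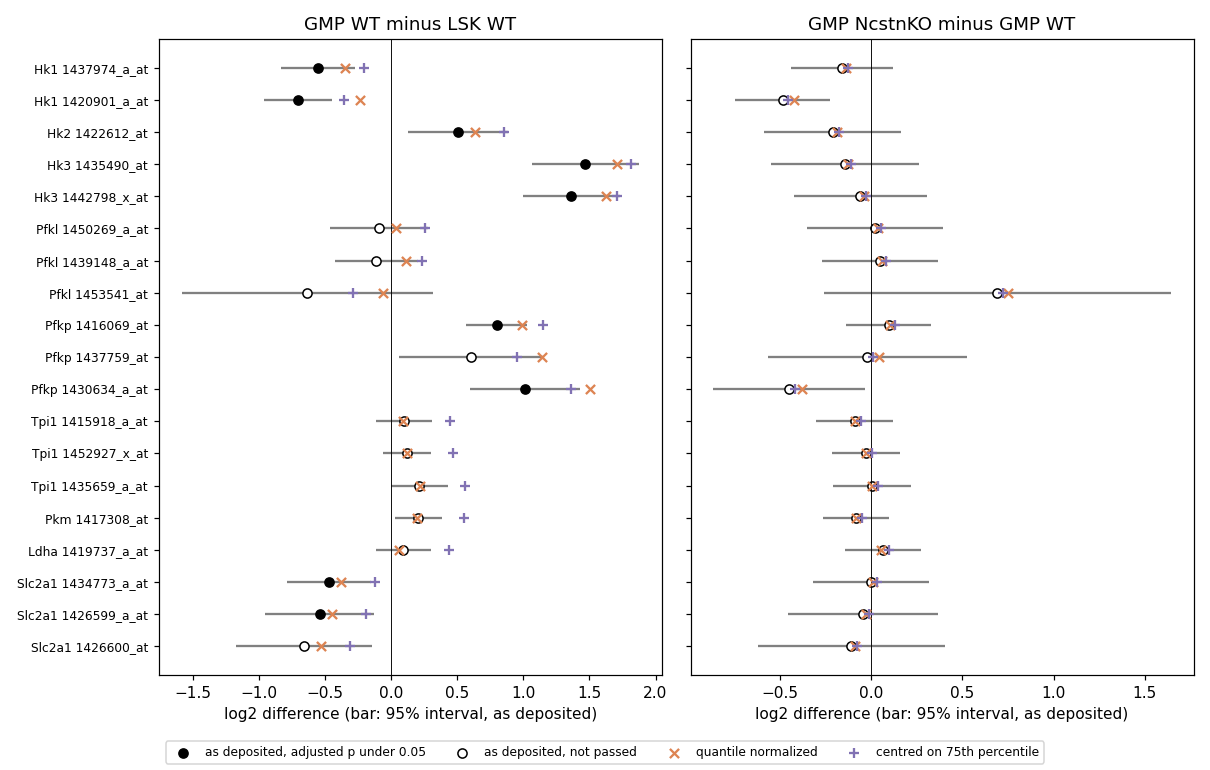
Log2 difference (x axis) of each glycolysis probe set (y axis) for GMP WT minus LSK WT (left) and GMP NcstnKO minus GMP WT (right). Circles are values as deposited, filled where the limma adjusted p was under 0.05, bars are 95% intervals, crosses are quantile-normalized and plus signs 75th-percentile-centred values. On the left 9 circles are filled, Hk3 lies farthest to the right, and on the right none is filled.

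Isozymes of a step were also compared within each array, where a shift of the whole array cancels. Each gene entered by its brightest probe set, and only the change of a ratio between groups is read, since probe sets differ in affinity. The log2 ratio of Hk3 to Hk1 was -1.05, -1.01 and -0.55 in LSK WT, 1.10, 1.26 and 1.11 in GMP WT and 0.95, 1.24 and 1.32 in GMP NcstnKO. It was higher on every GMP array than on every LSK array, by 2.03 on average between the WT groups (exact permutation test, 2-sided, p = 0.1, which is the lower limit with 3 arrays in each group). The ratio of Hk2 to Hk1 was 0.46, 0.41 and -0.02 in LSK WT, 1.20, 1.71 and 1.12 in GMP WT and 1.24, 1.17 and 1.47 in GMP NcstnKO, a change of 1.06 between the WT groups (exact p = 0.1). The ratio of Pfkp to Pfkl was -0.58, -0.98 and -0.63 in LSK WT, 0.16, 0.00 and 0.31 in GMP WT and -0.05, 0.30 and 0.45 in GMP NcstnKO, a change of 0.89 (exact p = 0.1). None of these ratios overlapped between LSK and GMP. Of all probe sets taken singly, 51.8% did not overlap between GMP WT and LSK WT. The share among ratios of other gene pairs was not computed. Under quantile normalization the changes were 2.06, 0.99 and 0.95. Over the 3 groups the exact permutation p-values were 0.0357, 0.0321 and 0.0286, and each became 0.116 after Benjamini-Hochberg adjustment over the 13 ratios computed. The isozyme pairs were chosen with earlier results of these data known, so these p-values are not independent support. Hk1 falling and Hk3 rising both enter the change of their ratio. Between GMP NcstnKO and GMP WT the ratios changed by 0.02, -0.05 and 0.07 (exact p = 1, 0.9 and 0.8), and their sign depended on which array was left out.

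**Figure D3:**
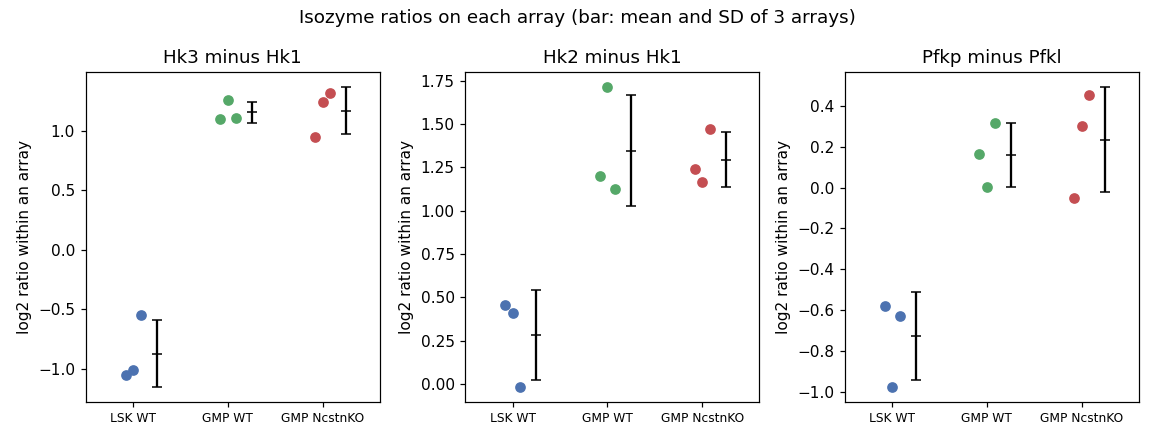
Log2 ratio (y axis) of Hk3 to Hk1, Hk2 to Hk1 and Pfkp to Pfkl on each array, by group (x axis). Points are arrays, and the bars give the mean and SD of 3 arrays. In each panel all 6 GMP arrays lie above all 3 LSK arrays, and the GMP groups overlap.

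Probe sets of the same gene were set against each other in the same way, over 10 further ratios. The dimmer Hk1 probe set against the brighter changed by -0.15 between the WT groups (exact permutation p = 0.4) and by 0.12 after quantile normalization, so that its direction was not settled. Between GMP NcstnKO and GMP WT it changed by -0.33 (exact p = 0.2), with ratios of -2.42, -2.55 and -2.07 beside -2.25, -2.01 and -1.79, which overlap. The dimmer Pfkp probe set 1430634_a_at against 1416069_at was lower on each GMP NcstnKO array (-4.79, -4.61 and -4.72) than on each GMP WT array (-4.33, -3.89 and -4.27), a change of -0.54 (exact p = 0.1, the smallest possible). The labels and the annotation do not give the exons that these probe sets read, and whether they tell transcript forms apart was not tested.

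The comparison of GMP NcstnKO with GMP WT asks whether the loss of nicastrin changes these genes in committed progenitors. No glycolysis probe set passed: 0 of 19 by limma, where 1.75% of all probe sets did, 0.604% higher and 1.15% lower, and 0 in each of the 21 alternative fits. At an unadjusted p under 0.05 there were 2, both lower in the knockout, beside 19.8% of all probe sets. Hk1 1420901_a_at differed by -0.49 (1.40-fold, SE 0.11, limma adjusted p = 0.0680), with no overlap between the groups. Pfkp 1430634_a_at differed by -0.45 (SE 0.18, adjusted p = 0.220), also with no overlap, while the bright Pfkp probe set stood at 0.10 (95% interval -0.13 to 0.33). The brighter Hk1 probe set stood at -0.16 (95% interval -0.44 to 0.12), so both Hk1 probe sets stood below 0. Groups did not overlap for 4 of the 19, all lower in the knockout, where 27.2% of all probe sets did not overlap, 14.9% higher and 12.3% lower. The other pair of these was 1415918_a_at of Tpi1, at -0.09, and Pkm, at -0.08, separated by 0.0045 and 0.013 between the nearest arrays.

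For the other members, the 95% intervals give the range of differences between the knockout and GMP WT that these arrays allow. Hk3 1435490_at stood at -0.14 (95% interval -0.55 to 0.26), Hk2 at -0.21 (-0.59 to 0.17), Ldha at 0.06 (-0.14 to 0.27) and Slc2a1 1434773_a_at at -0.00 (-0.32 to 0.32). Pfkl 1453541_at stood at 0.69 (-0.26 to 1.64), where GMP NcstnKO array 1 read 8.02 beside 6.49 and 6.65, and at 0.21 without that array. The remaining 8 probe sets ranged from -0.11 to 0.05. A p that misses the threshold does not show equal levels.

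GMP NcstnKO was also set against LSK WT, which shares its arrays with both comparisons above. Here 9 of 19 passed by limma, 4 higher and 5 lower, beside 43.5% of all probe sets, 11.4% higher and 32.1% lower. Hk3 stood at 1.33 and 1.30, Pfkp at 0.89 and 0.56 on 1416069_at and 1430634_a_at, Hk1 at -0.72 and -1.19, and Slc2a1 at -0.47, -0.58 and -0.77, and these are the 9 that passed. After quantile normalization the same probe sets stood at 1.58 and 1.59, 1.09 and 1.12, -0.49 and -0.66, and -0.38, -0.48 and -0.62. Slc2a1 1434773_a_at and 1426599_a_at did not pass there (adjusted p = 0.0528 and 0.0564), and after centring the 3 Slc2a1 probe sets stood at -0.09, -0.20 and -0.39, none of them passing (adjusted p = 0.605, 0.352 and 0.166). Hk2, at 0.30 (95% interval -0.08 to 0.67), did not pass as deposited, nor after quantile normalization (0.44, limma adjusted p = 0.0631). After centring it stood at 0.68 and passed (adjusted p = 0.00738). After quantile normalization 8 passed, 5 higher and 3 lower, beside 43.9% of all probe sets, 25.4% higher and 18.6% lower. Centring on the 75th percentile gave 11 higher and 2 lower, beside 54.5% of all, 37.6% higher and 16.9% lower. With the replicate block Pfkp 1430634_a_at no longer passed (adjusted p = 0.0563). The count was 5 without LSK WT array 1, without LSK WT array 2 or without GMP NcstnKO array 2.

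The 5 arrays whose sex transcripts match the labels leave a single GMP array of each genotype, assumed to vary like LSK. On them Hk3 1435490_at stood at 1.47 (limma adjusted p = 0.0696), Pfkp 1416069_at at 0.78 (adjusted p = 0.0625), Hk1 1437974_a_at at -0.50 (adjusted p = 0.160) and Hk2 at 0.42 (adjusted p = 0.321) in GMP WT against LSK WT. Slc2a1 stood at -0.65, -0.80 and -1.02 on 1434773_a_at, 1426599_a_at and 1426600_at, and the last of these passed (adjusted p = 0.0413). Pfkp 1437759_at, at 1.19 (adjusted p = 0.0297), and Hk1 1420901_a_at passed as well. In all 3 of 19 passed there, of which only Hk1 1420901_a_at had passed over all 9 arrays, beside 7.38% of all probe sets, and 3 in GMP NcstnKO against LSK WT, beside 14%.

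The rest of the pathway was read through lists of other enzymes, regulators, transporters and branches, each gene by its brightest probe set. Among 18193 genes read in this way, 36.2% passed between GMP WT and LSK WT, 6.92% higher and 29.2% lower, and 32.6% after quantile normalization, 18.1% higher and 14.5% lower. After centring on the 75th percentile 44.3% passed, 30.7% higher and 13.7% lower. Of 17 other measured glycolysis enzymes 2 were higher in GMP WT and 7 lower, 3 and 4 after quantile normalization, and 5 and 3 after centring, so the balance of the list was not settled. Aldoc, an aldolase of brain and other tissues, read 9.17, 9.16 and 8.49 in LSK WT and 5.66, 6.41 and 6.27 in GMP WT, and fell by 2.83 (limma adjusted p = 0.000107). Eno2, the neuronal enolase, read 8.79, 8.59 and 7.40 in LSK WT and was at background on all GMP WT arrays, at least 15.2-fold lower. Pfkm, the muscle-type phosphofructokinase, read 10.95, 11.03 and 10.80 in LSK WT and 9.81, 9.58 and 9.65 in GMP WT, and fell by 1.25 (adjusted p = 0.000114). These 3 isozymes passed under each scaling. Pgam1, the widely expressed phosphoglycerate mutase, rose by 0.54 (adjusted p = 0.00178), and Ldhc, the testis-type lactate dehydrogenase, by 1.81 (adjusted p = 0.00214). Adpgk, an ADP-dependent glucokinase, fell by 0.85 (adjusted p = 0.0157), and stood at -0.50 after centring (adjusted p = 0.0951). The median of the 17 was -0.30 beside -0.18 over all genes. Without LSK WT array 1, GMP WT array 1 or GMP WT array 3, 4 were lower in place of 7.

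**Figure D4:**
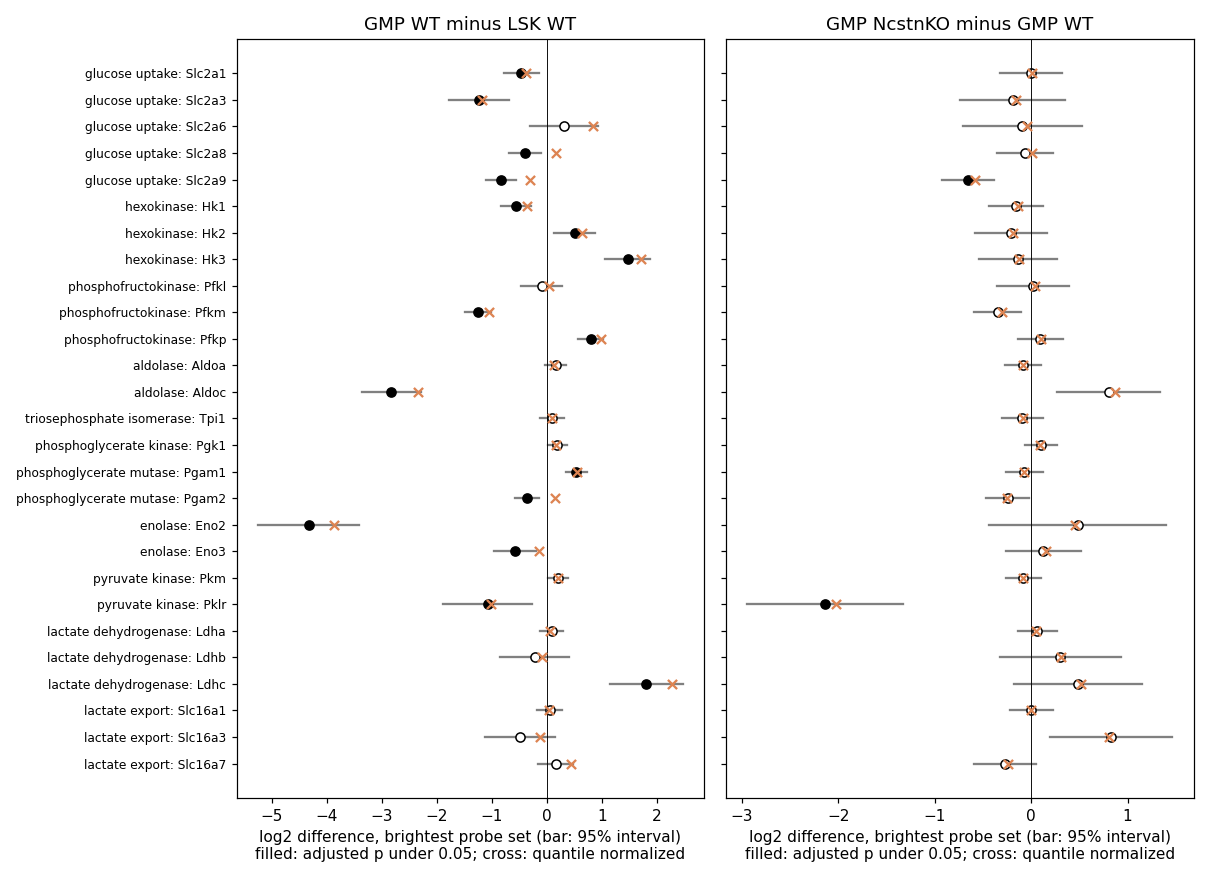
Log2 difference (x axis) of Slc2a transporters, glycolysis enzymes and lactate transporters in the order of the pathway (y axis), each gene by its brightest probe set, for GMP WT minus LSK WT (left) and GMP NcstnKO minus GMP WT (right). Circles are values as deposited, filled where the limma adjusted p was under 0.05, bars are 95% intervals and crosses are quantile-normalized values. Eno2 and Aldoc lie farthest to the left in the left panel, and Pklr and Slc2a9 are the filled circles of the right panel. Slc2a9, a urate carrier, is drawn at the step of glucose uptake.

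Regulators of glycolysis and of pyruvate dehydrogenase split into 2 higher and 5 lower of 19 measured, 2 and 4 after quantile normalization, and 7 and 3 after centring. Pdk2 and Pdk4, kinases that switch off pyruvate dehydrogenase, fell. Pdk2 read 8.51, 9.01 and 8.21 in LSK WT and 7.12, 6.77 and 7.16 in GMP WT, a fall of 1.56 (limma adjusted p = 0.000655). Pdk4 read 9.04, 7.54 and 6.13 in LSK WT and 4.39, 4.26 and 4.31 in GMP WT, a difference of -3.25 (adjusted p = 0.00345) whose size is uncertain, since 2 of the 3 GMP WT arrays were barely above the background limit and the other was below it. Pfkfb4, which makes the phosphofructokinase activator fructose-2,6-bisphosphate, fell by 1.09 (adjusted p = 0.00152), and by 0.59 after quantile normalization. Pfkfb3, of the same family, rose by 0.47 (adjusted p = 0.0223), and stood at 0.21 with the mean of its probe sets (adjusted p = 0.153). Tigar, a phosphatase of that activator, rose by 0.74 (adjusted p = 0.0400), and lost its call in 6 of 9 fits without an array. Txnip, an inhibitor of glucose uptake, fell by 0.45 (adjusted p = 0.0180), stood at -0.10 after centring (adjusted p = 0.528), and at -1.003 with the mean of its probe sets. None of the list passed as higher without LSK WT array 2, GMP WT array 1 or GMP WT array 3, and 3 passed as lower without LSK WT array 1 or GMP WT array 3.

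Among other sugar, lactate and pyruvate transporters, 1 was higher and 5 lower of 17, 5 and 2 after quantile normalization, and 6 and 3 after centring. Slc2a3, the gene of the high-affinity transporter GLUT3, on a probe set whose suffix allows related transcripts, read 12.34, 11.90 and 12.31 in LSK WT and 10.89, 10.96 and 11.03 in GMP WT. It fell by 1.23 (limma adjusted p = 0.00504) and by 1.18 after quantile normalization. Slc2a10 fell by 1.36 (adjusted p = 0.00289), and by 0.81 after quantile normalization. Slc2a9, a urate carrier, and Slc2a4, the gene of the insulin-responsive GLUT4, fell by 0.84 and 0.88 (adjusted p = 0.00121 and 0.00702) and did not pass after quantile normalization (-0.31 and -0.49). Slc2a8 fell by 0.40 as deposited, stood at 0.17 after quantile normalization and at -0.05 after centring, so its direction was not settled. Slc2a2 was counted as higher but was at background in both groups.

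In the pentose phosphate pathway, which branches off after hexokinase and makes NADPH and ribose, 4 of 9 measured genes rose and 0 fell, with the same counts after quantile normalization, and 7 and 0 after centring. Pgd, a dehydrogenase that makes NADPH, read 12.24, 12.42 and 12.55 in LSK WT and 12.91, 12.88 and 12.80 in GMP WT, and rose by 0.46 (limma adjusted p = 0.00819). Pgls rose by 0.43 (adjusted p = 0.0232), Rpe by 0.44 (adjusted p = 0.0119), and Tktl1, at background in LSK WT, was at least 2.53-fold higher. With the mean of its probe sets Rpe stood at 0.02 (adjusted p = 0.870), and Pgls lost its call without LSK WT array 1, GMP WT array 1 or GMP WT array 2. The median of the 9 was 0.18 beside -0.18 over all genes. Of 23 genes of glycogen, gluconeogenesis, hexosamine and serine branches, 4 rose and 7 fell, 4 and 3 after quantile normalization, and 12 and 4 after centring, which turns the balance. Gys1, glycogen synthase, rose by 0.98 (adjusted p = 0.00343), or 0.48 with the mean of its probe sets, and G6pc3, a glucose-6-phosphatase that neutrophils need, by 0.71 (adjusted p = 0.000783). Pygm, the muscle glycogen phosphorylase, fell by 2.70 (adjusted p = 0.000109), Gfpt2, of hexosamine synthesis, by 1.84 (adjusted p = 0.00131), Pck2 by 0.63 (adjusted p = 0.00157) and Fbp2 by 0.55 (adjusted p = 0.00279), Fbp2 not after quantile normalization or centring. The fit on the 5 arrays whose sex transcripts match the labels leaves a single GMP array of each genotype. Calls in these lists were therefore not read there.

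Markers of other cell types were read between LSK WT and GMP WT, where 36.2% of all genes passed, 6.92% higher and 29.2% lower. Erythroid markers were higher on 0 and lower on 4 of 10 measured genes, with 1 lower after quantile normalization and 3 after centring. Late neutrophil markers were lower in GMP WT on 10 of 10 measured genes (9 after quantile normalization and 8 after centring), with summed levels of 16.05 to 16.47 (log2) in LSK WT, 15.01 to 15.41 in GMP WT and 15.52 to 15.70 in GMP NcstnKO, and none of them at background. Lymphoid markers were lower on 6 of 7 (12.56 to 13.32 in LSK WT against 10.98 to 11.46 in GMP WT), megakaryocyte and platelet markers on 5 of 7 (12.60 to 13.24 against 11.89 to 12.58), and 1 of 9 macrophage markers was higher and 3 were lower. The summed level of the macrophage markers was higher in GMP WT (12.67 to 12.92 against 11.83 to 12.42), and after quantile normalization 1 was higher and 0 lower. Lymphoid markers kept a count of 6 under both other scalings, and megakaryocyte and platelet markers had 1 higher and 3 lower after quantile normalization and 3 lower after centring. The megakaryocyte count was 3 without LSK WT array 1 or GMP WT array 2, and a single macrophage marker was lower without LSK WT array 2 or 3 or GMP WT array 2 or 3. Their part in the differences of the glycolysis genes was not tested.

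Between GMP NcstnKO and GMP WT, 1 of the 17 other glycolysis enzymes and 1 of the 17 transporters passed. Of the 19 regulators, the 9 pentose phosphate genes and the 23 branch genes 0 passed. Over all genes 2.31% passed, 0.846% higher and 1.46% lower, so 2 calls over these pathway lists are about what that share gives. Pklr, the pyruvate kinase of liver and red cells, read 11.28, 10.41 and 11.05 in GMP WT and 7.98, 8.86 and 9.48 in GMP NcstnKO, with no overlap. It fell by 2.14 (SE 0.35, limma adjusted p = 0.0383), and did not pass in any of the 9 fits without an array, where it stood between -2.49 and -1.74, nor with the replicate block (adjusted p = 0.0641). With the mean of its probe sets it stood at -1.07 and passed (adjusted p = 0.0417). Erythroid markers fell beside it: 5 of 10 measured, among them Klf1, a master factor of red cells, at -2.01 and Ermap, a red cell membrane protein, at -2.50, and none rose. Their summed level was 15.33 to 15.60 in LSK WT, 14.41 to 15.07 in GMP WT and 13.57 to 13.96 in GMP NcstnKO, with Hba-a1 at background in all groups, and their part in the Pklr value was not tested. Of the 10, 5 passed without GMP WT array 2, 2 without LSK WT array 2 and 0 without any other single array, and 0 with the replicate block, the groups alone or any covariate. Macrophage markers fell on 2 of 9 (C1qa and C1qc) and megakaryocyte and platelet markers on 1 of 7 (Vwf), genes named here after their values were seen, and these counts too were 0 with the replicate block. Slc2a9 fell by 0.65 (SE 0.12, adjusted p = 0.0421), and stood at -0.58 after quantile normalization (adjusted p = 0.0591) and at -0.24 with the mean of its probe sets (adjusted p = 0.190). It passed in none of the 9 fits without an array. Aldoc at 0.80 (adjusted p = 0.111), Pfkm at -0.35 (adjusted p = 0.120), Txnip at -0.51 (adjusted p = 0.0665), Slc37a4, a glucose-6-phosphate carrier, at 0.66 (adjusted p = 0.0684) and Psph, of serine synthesis, at 0.54 (adjusted p = 0.0599) did not pass. Some alternatives added calls. Fitted on the brightest probe set of each gene alone, 1 regulator passed as lower, and 1 transporter and 1 branch gene as higher. The branch list also held 1 higher call without the dimmest 40% of probe sets and with the offset, and the regulators 1 lower call with the offset.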

How the data were processed

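Gene expression was read on 9 Affymetrix arrays. The authors deposited a linear intensity per probe set, made with RMA per the submitters' processing notes, which give no version, and the deposited arrays do not share a distribution. The sources used here do not say if the arrays were normalized jointly. Per the labels' protocols, 5 ng of total RNA was amplified and labelled with biotin. The number of arrays limits the precision.

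A linear model of 3 group means was fitted to the log2 intensities of the 9 arrays (limma 3.58.1 under R 4.3.3, moderated 2-sided test from eBayes), and p-values were adjusted by Benjamini-Hochberg over all 45037 probe sets that are not controls (64 controls were left out). A call is an adjusted p under 0.05. Probe sets were named through the platform annotation. All probe sets naming a single member were used, and the 1 further probe set that names Hk1 with other genes was not. Other genes entered by their brightest probe set, with up to 6 named per list by the p of GMP WT against LSK WT and up to 3 by that of GMP NcstnKO against GMP WT. Ratios within an array were compared by exact permutation tests. A gene is at background in a group when all its arrays lie at or below the 95th percentile of 27 unspiked controls, and a fold against it is a lower bound. The members, the isozyme ratios, the lists and this limit were chosen with earlier results of these data known.

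Deviations of same-numbered LSK WT and GMP WT arrays from their group means correlated at 0.25, 0.25 and 0.30 across probe sets. This hints at a pairing that the labels do not state. The main fit and the exact tests of ratios treated the arrays as unpaired, and the replicate block was run only as an alternative. For GMP NcstnKO and GMP WT the values were -0.03, 0.02 and 0.03, and no pairing was taken. In that comparison the replicate block rests on the numbers alone and leaves less information on the spread between arrays, so a call lost under it says little. The fit was tested on simulated data with known changes.

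Alternatives were quantile normalization, centring on the 75th percentile, a replicate block, the compared groups alone, leaving out the dimmest 40% of probe sets, an offset of 16, features per gene, label sex, transcript sex or the Actb ratio as a covariate, and each array left out. The fit on the 5 arrays whose sex transcripts match the labels was added after the data were seen.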

Additional observations from a re-analysis of the deposited data

How the results depend on the processing

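The count of called members in GMP WT against LSK WT, 9, was 6 to 9 without an array at a time, 7 with the Actb ratio as a covariate (Hk1 1437974_a_at, Hk2 and Slc2a1 1426599_a_at lost, Pfkp 1437759_at gained) and 3 on the arrays whose sex transcripts match the labels (8 lost, and Pfkp 1437759_at and Slc2a1 1426600_at gained). In GMP NcstnKO against LSK WT the count, 9, was 5 to 10 without an array, 5 with transcript sex as a covariate and 3 on the matching arrays. In GMP NcstnKO against GMP WT the count was 0 in all alternatives run. Between the WT groups, label sex as a covariate ended the calls of Hk2, Slc2a1 1434773_a_at and Slc2a1 1426599_a_at (limma adjusted p = 0.132, 0.154 and 0.186). By label all GMP WT arrays are female and LSK WT holds both sexes, so this covariate partly follows the group. The label also goes against the sex transcripts on some of these arrays, so a call lost under it says little about sex. Hk2 also lost its call with the groups alone (adjusted p = 0.0792) and with transcript sex (adjusted p = 0.0584), while Slc2a1 1426600_at passed with the groups alone (adjusted p = 0.0350). Fewer arrays enter the matching fit, and the cause of the other changes was not tested. Among the members signs turned only for values that did not pass. Between the WT groups they turned on 3 probe sets, all of Pfkl. With quantile normalization, centring and the Actb ratio, 1450269_a_at stood at 0.0368, 0.256 and 0.0827, and 1439148_a_at at 0.11, 0.24 and 0.0511. Without 1 array this pair ran from -0.21 to 0.0881 and from -0.23 to 0.0151. The dim 1453541_at stood at 0.0446 with the Actb ratio. Between the GMP groups signs turned on 14 probe sets, among them, with the Actb ratio, Pfkl 1453541_at (-0.59) and Pfkp 1430634_a_at (0.13). Between GMP NcstnKO and LSK WT signs turned on 4 probe sets. Slc2a8, called lower as deposited, turned to 0.17 with quantile normalization, where it did not pass. Ratios of GMP NcstnKO against GMP WT turned with the mean of all probe sets for Hk2 to Hk1 (0.11) and Pfkp to Pfkl (-0.38), and without 1 array ran from -0.0595 to 0.13 for Hk3 to Hk1, -0.16 to 0.13 for Hk2 to Hk1 and -0.0346 to 0.22 for Pfkp to Pfkl. The Hk1 probe set ratio turned to 0.12 with quantile normalization. In all, 9 of 379 values of the members turned sign between the WT groups, 49 of 379 between the GMP groups and 19 of 379 between GMP NcstnKO and LSK WT, and 0 of them passed with the other sign. Beside the named values, the replicate block changed no call of a member. For all features, 790 calls of GMP NcstnKO against GMP WT became 1 to 285 without 1 array, 9 with the replicate block, 2 with the groups alone, 497 with quantile normalization, 1367 without dim probe sets, 1295 with the offset, 4 with transcript sex, 1 with label sex and 0 with the Actb ratio or on the matching arrays. The 15710 calls of GMP WT against LSK WT became 11916 to 15937 without 1 array, 10130 with the Actb ratio and 3323 on the matching arrays.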
